A study of Mus musculus with 4 samples.

Results

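The DNA replication and S-phase genes comprised 38 genes, nearly all of the machinery that licenses, copies and repackages DNA. Ube2t, of DNA crosslink repair, was listed among them. The genes were chosen by gene symbol, with earlier results of these data known. They were read in lineage-negative marrow cells of the mouse, the fraction left once cells bearing mature blood lineage markers are removed. In 2 samples the wild-type cells carried FLT3-ITD, and its signalling had run for 48 h. FLT3-ITD is a receptor tyrosine kinase of early blood cells made constitutively active by a duplicated stretch, and it occurs in acute myeloid leukaemia. In the 2 control samples wild-type cells carried the empty vector pMIG, for which no time is labelled. The labels give no animal age, strain, promoter or sorting step, and do not say whether replicates came from separate animals, so p-values measure a spread that may be technical.

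Of the 38 genes, 36 had at least 1 probe under their symbol on the Illumina bead array, 61 probes in all among 26512. Gins1 and Gins2 were not analysed here. A detection p-value under 0.05 on at least 2 of the 4 arrays was required, which 54 of the 61 probes met, covering 35 genes. The only probe of Pola1 was left out because it was not detected on any array. Other probes of Tk1, Uhrf1, Orc1, Cdc6 and Mcm6 were also left out. Of the 54 probes, 47 were detected on all 4 arrays, and none was detected in one group only. Values are log2 signals after background correction and normalization, and differences are FLT3-ITD minus pMIG on that log2 scale, where 1 is a 2-fold change. They can be compared between arrays for a probe, not between probes.

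Replication begins in G1, when the origin recognition complex, Cdc6 and Cdt1 load the ring of Mcm2 to Mcm7 onto DNA. In S phase Cdc45, the GINS complex and Mcm10 turn that ring into an active helicase, primase and polymerases copy the strands, and ribonucleotide reductase and thymidylate synthase feed them with deoxynucleotides. Many of these genes are transcribed together at the G1 to S transition by E2F transcription factors, which the retinoblastoma protein family restrains. In bone marrow, progenitors cycle and mature granulocytes do not, so these transcripts are often read as a sign of cycling cells.

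The promoters show a feature that the choice of genes did not use. RefSeq promoter windows (GRCm38.p6, from 250 bases before to 50 bases after a transcript's start) were matched for 32 of the 38 genes. E2F-type words were searched on both strands, TTTGGCGC, TTTGCCGC, TTTCGCGC and TTTCCCGC, and matches on opposite strands can overlap. At least 1 of them lay in the windows of 12 of the 32 genes (37.5%), against 2.60% of 27025 genes with a window and 4.44% of 7906 genes detected on these arrays. The 12 were Cdc6, Cdt1, Lig1, Mcm3, Mcm5, Mcm6, Mcm7, Orc1, Pola1, Pold1, Rfc3 and Uhrf1. The CCAAT box was found in 20 of the 32 (62.5%), against 41.1% of all genes with a window and 43.3% of detected genes. The word TTTGAA, the core of the element that times many mitotic genes, was found in 3 of 32 (9.38%), against 20.2% and 14.8%. These matches are letters in a window and are not evidence of a bound factor.

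The 250 bases before the start are printed for Mcm5, a helicase subunit with an overlapping E2F-type pair, for Mcm6, whose probes disagreed, and for Ube2t, whose difference was the most negative and whose window held no E2F-type word of those searched. Capitals mark E2F-type words and CCAAT boxes on either strand (CCAAT reads ATTGG on the other), 5′ to 3′ along the gene. Mcm5 lies at chr8:75109259-75109508, plus strand, Mcm6 at chr1:128359706-128359955, minus strand, and Ube2t at chr1:134962315-134962564, plus strand, all in GRCm38.p6.
Mcm5: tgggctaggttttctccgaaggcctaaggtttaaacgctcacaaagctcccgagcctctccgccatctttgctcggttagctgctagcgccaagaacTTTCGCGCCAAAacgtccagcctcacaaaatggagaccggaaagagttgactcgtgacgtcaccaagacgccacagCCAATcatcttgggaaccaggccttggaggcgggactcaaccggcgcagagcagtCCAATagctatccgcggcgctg
Mcm6: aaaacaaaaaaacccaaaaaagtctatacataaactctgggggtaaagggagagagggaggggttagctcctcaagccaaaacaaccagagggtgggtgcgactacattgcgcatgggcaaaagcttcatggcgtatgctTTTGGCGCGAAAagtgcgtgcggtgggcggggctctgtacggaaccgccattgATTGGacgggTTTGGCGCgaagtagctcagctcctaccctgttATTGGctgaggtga
Ube2t: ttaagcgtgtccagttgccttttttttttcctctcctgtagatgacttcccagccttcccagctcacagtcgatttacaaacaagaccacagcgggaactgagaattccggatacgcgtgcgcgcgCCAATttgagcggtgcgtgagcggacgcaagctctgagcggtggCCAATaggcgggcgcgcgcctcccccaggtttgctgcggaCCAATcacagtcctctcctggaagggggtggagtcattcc

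**Figure D1:**
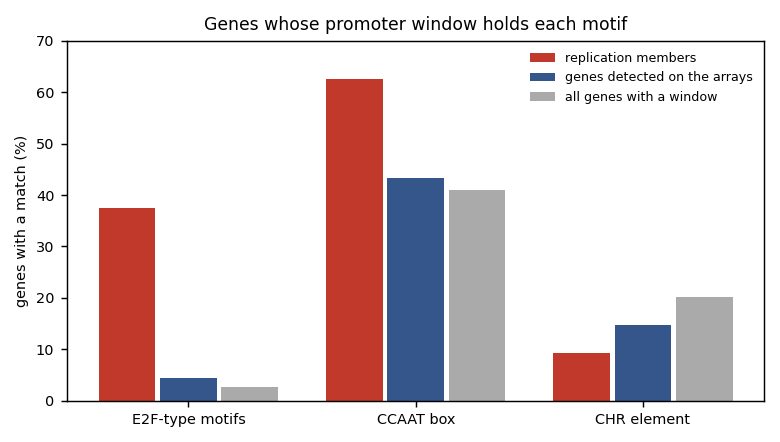
Bars give the percentage of genes (vertical axis, from 0) whose RefSeq promoter window holds at least 1 E2F-type word, a CCAAT box or the TTTGAA element, for the replication genes, genes detected on the arrays and all genes with a window. The replication genes stand at 37.5% for E2F-type words, against 4.44% of detected genes.

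The comparison asks how 48 h of FLT3-ITD signalling altered the transcripts of the replication machinery. No replication gene with a detected probe passed the test. In limma, 0 of the 54 member probes passed an adjusted p of 0.05, where 0.106% of all 14178 detected probes did. The median difference was -0.06 over the 54 probes and -0.01 over all detected probes. The interquartile range of the member probes was -0.20 to 0.10, and that of all detected probes ran between -0.20 and 0.17. At an unadjusted p under 0.05 there were 3 member probes (5.56%) with a negative difference, of Ube2t, Mcm6 and Cdc45, and 0 with a positive one, where 8.29% and 8.41% of all detected probes were called in these directions. Both FLT3-ITD arrays were above both pMIG arrays for 7 member probes (13.0%, against 23.8% of all detected probes) and below both for 14 (25.9%, against 25.6%).

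Intervals bound how far most of these transcripts could have differed. The 95% interval of the difference lay within a 2-fold change either way for 49 of the 54 probes (90.7%, against 85.2% of all detected probes). For 31 the interval lay within a 1.5-fold change, a share not counted over all detected probes. The interval of a member probe reached a median of 0.36 either side of the difference, from 0.29 to 1.01. The 5 probes whose intervals reached a 2-fold change belonged to Ube2t, Orc1, Cdc45, Lig1 and Tyms. All but that of Ube2t were dim probes that were undetected on at least 1 array. These intervals rest on 2 arrays a group and on a spread shared between probes, and an exact test of 2 against 2 cannot go below p = 0.333.

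**Figure D2:**
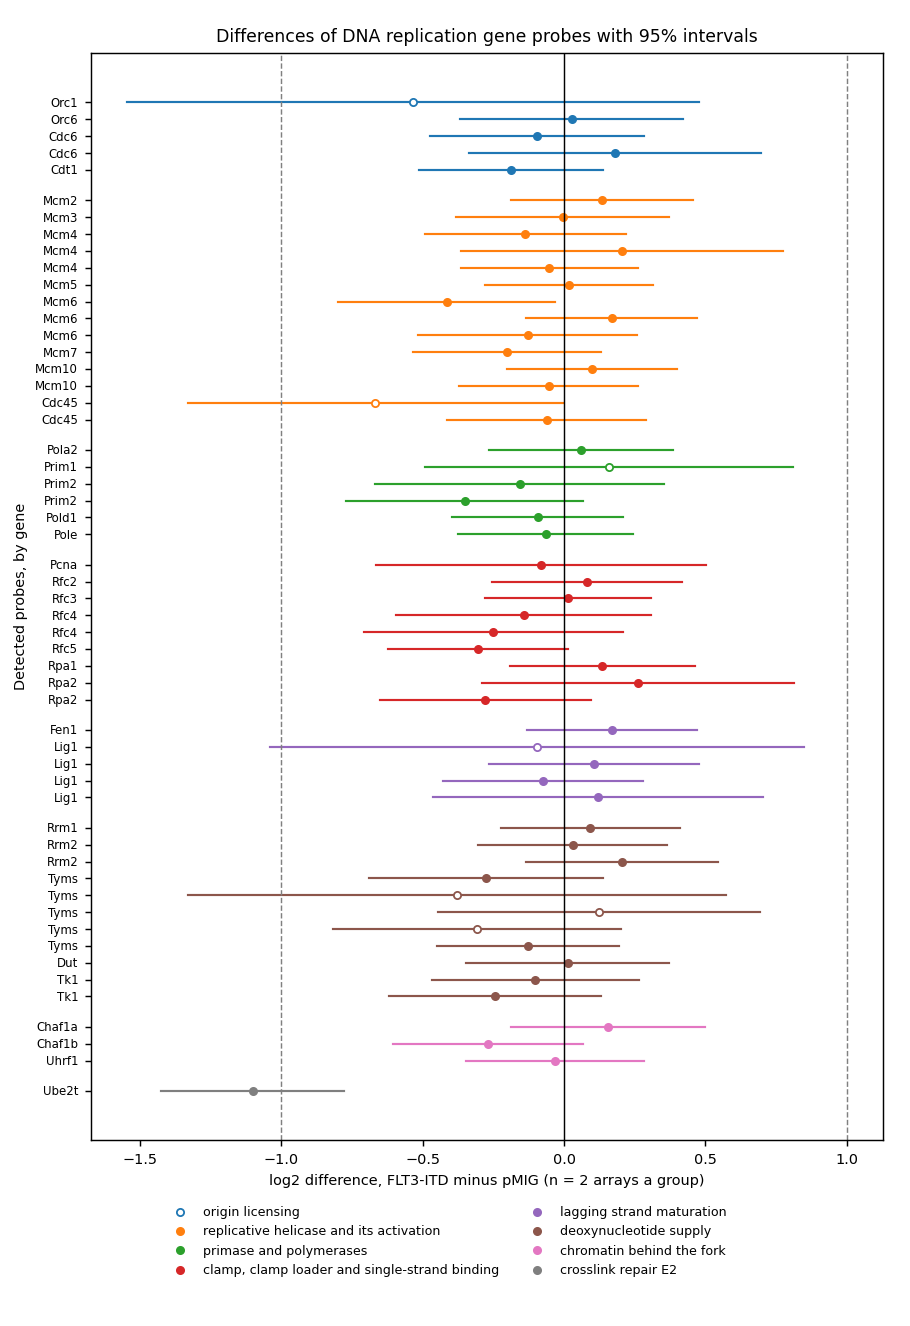
Each of the 54 detected probes is drawn by gene (vertical axis) with its log2 difference, FLT3-ITD minus pMIG (horizontal axis, point), and its 95% interval (line), coloured by role. Open points were detected on fewer than 4 arrays, and dashed lines mark a 2-fold change. Ube2t, at -1.10, is the only point beyond them.

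Origin licensing genes differed little where their probes were bright. Cdt1, which loads the MCM ring, read 11.09 and 11.06 in FLT3-ITD, against 11.35 and 11.18 in pMIG, a difference of -0.19 (SE 0.12, limma adjusted p = 0.508). Both FLT3-ITD values lay below both pMIG values, by less than the test allows to call. Cdc6, the partner of the origin complex in loading, read 8.81 and 8.87 against 9.07 and 8.80 on its brighter probe, and the groups overlapped. Its dimmer probe differed by 0.18 the other way from the -0.10 of the brighter one. Orc6, a subunit of the origin recognition complex, read 10.82 and 10.99 against 10.75 and 11.00, a difference of 0.03. Orc1, the origin complex subunit whose level cycles, was undetected on FLT3-ITD replicate 1. It read 4.41 and 5.51 in FLT3-ITD, against 5.39 and 5.60 in pMIG, so the interval of its difference ran from -1.55 to 0.48.

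The replicative helicase had 14 detected probes over 8 genes, with a median difference of -0.05. Mcm2 read 10.92 and 10.77 in FLT3-ITD and 10.71 on both pMIG arrays, a difference of 0.13 (interval -0.19 to 0.46). Mcm5 read 12.32 and 12.38 against 12.34 and 12.33, a difference of 0.02 (interval -0.28 to 0.32). Mcm3, another ring subunit, differed by -0.01 and Mcm7 by -0.20, with Mcm7 at 8.51 and 8.68 against 8.76 and 8.84. For Mcm2 and Mcm7 the groups did not overlap, in opposite directions, and for Mcm3 and Mcm5 they did. Mcm4 differed by -0.05 on its bright probe, and by -0.14 and 0.20 on its dim ones. Mcm10, a scaffold of the active helicase, differed by 0.10 and -0.05 on its probes.

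Mcm6 was the helicase gene whose bright probes disagreed most. All 3 are annotated to the same transcript accession. Probe ILMN_1217331 read 10.89 and 10.61 in FLT3-ITD, against 11.20 and 11.13 in pMIG, a difference of -0.41 (SE 0.15, adjusted p = 0.275). Probe ILMN_1233857 read 10.87 and 10.79 against 10.66 and 10.66, a difference of 0.17 (SE 0.12, adjusted p = 0.519). Neither passed, and in each the groups were apart, in opposite directions. The remaining one, ILMN_2803399, read 10.31 and 10.57 against 10.63 and 10.51, with the groups overlapping. Within an array, the first probe minus the second was 0.02 and -0.17 in FLT3-ITD, against 0.54 and 0.47 in pMIG. A single direction for Mcm6 therefore cannot be given from these probes, and where each lies in the transcript is not known here.

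Cdc45, which joins the MCM ring when an origin fires, also differed between its probes. The bright probe ILMN_2919433 read 9.76 and 9.89 in FLT3-ITD, against 9.80 and 9.98 in pMIG, a difference of -0.06 with overlapping groups. The dim probe ILMN_2622551 was undetected on FLT3-ITD replicate 2 and read 4.62 and 4.55 against 4.91 and 5.60. Its difference of -0.67 (SE 0.25, adjusted p = 0.297) was -0.20 without background correction.

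**Figure D3:**
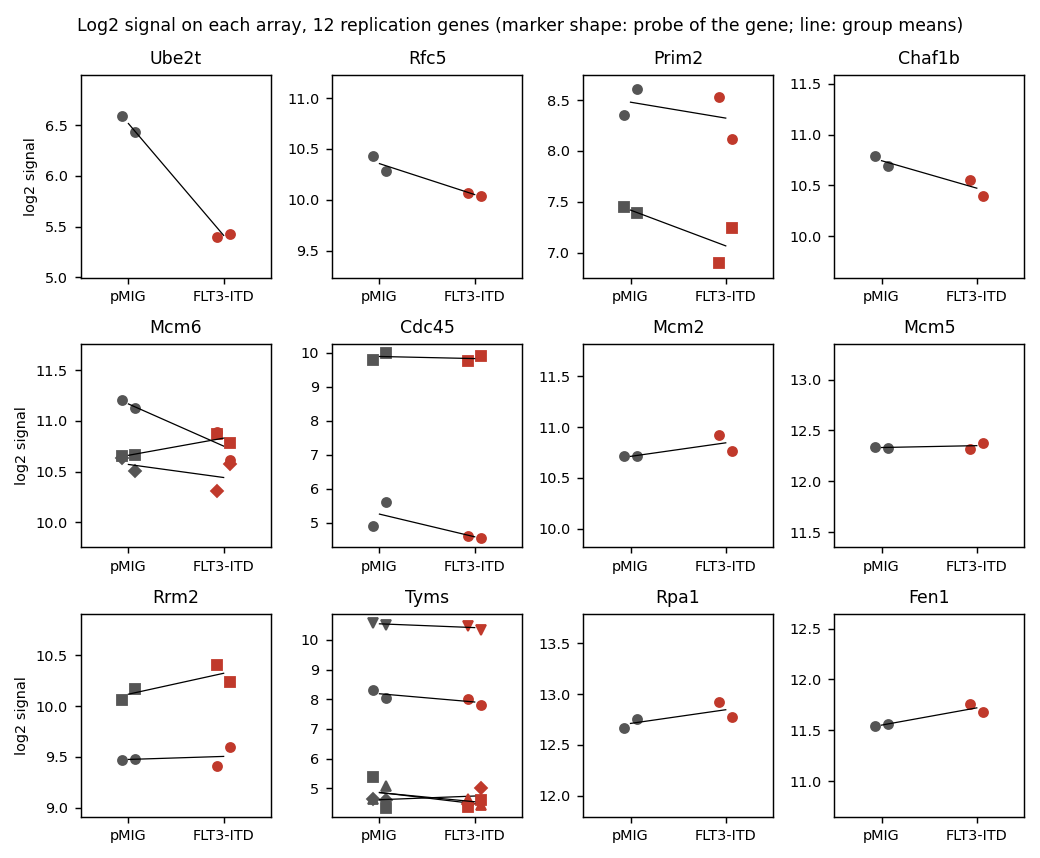
Log2 signal (vertical axes, each spanning at least 2 units) of 12 replication genes on the 2 pMIG arrays (grey) and the 2 FLT3-ITD arrays (red), with a marker shape for each probe of a gene and lines joining group means. The Ube2t means are 6.51 in pMIG and 5.41 in FLT3-ITD, while those of Mcm5 differ by 0.02.

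Primase and polymerase genes had 6 detected probes with differences from -0.35 to 0.16. Prim2, the large primase subunit, differed by -0.35 (SE 0.16, adjusted p = 0.352) on probe ILMN_2982969, at 6.89 and 7.24 in FLT3-ITD, against 7.45 and 7.39 in pMIG. Its second probe read 8.53 and 8.12 against 8.35 and 8.61, a difference of -0.16 with overlapping groups. The DNA polymerase delta catalytic gene Pold1 read 11.56 and 11.52 against 11.59 and 11.67, a difference of -0.09. Pole, the leading strand polymerase, differed by -0.07, and Pola2, a subunit of the priming polymerase, by 0.06. Prim1, the catalytic primase subunit, was near background and differed by 0.16.

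Of the sliding clamp, its loader and the single-strand binding proteins, Rfc5 had the smallest p. This clamp loader subunit read 10.06 and 10.04 in FLT3-ITD, against 10.43 and 10.28 in pMIG, a difference of -0.30 (SE 0.12, adjusted p = 0.312). The groups were apart, and the interval ran from -0.63 to 0.02. The other loader subunits differed by 0.08 (Rfc2), 0.01 (Rfc3) and -0.14 and -0.25 (both probes of Rfc4). Pcna, the clamp itself, read 6.96 and 7.03 against 7.36 and 6.78, a difference of -0.08. The pMIG replicates of Pcna lay further apart than the group means. Rpa1, the largest single-strand binding subunit, read 12.92 and 12.77 against 12.67 and 12.76, a difference of 0.13. Rpa2, its partner, differed by -0.28 on one probe (8.53 and 8.35 against 8.61 and 8.82) and by 0.26 on a dimmer one with overlapping groups.

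The genes that finish the lagging strand had small positive differences on their brightest probes. Fen1, the flap endonuclease, read 11.76 and 11.68 in FLT3-ITD, against 11.54 and 11.56 in pMIG, a difference of 0.17 (SE 0.11, adjusted p = 0.516). Lig1, the ligase that seals Okazaki fragments, read 9.67 and 9.71 against 9.46 and 9.72 on its brightest probe, a difference of 0.11, and from -0.10 to 0.12 over its 4 probes. The groups were apart for Fen1 and overlapped for all 4 Lig1 probes.

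Deoxynucleotide supply had 11 detected probes, with a median of -0.10. Rrm1, the large ribonucleotide reductase subunit, differed by 0.09, and Rrm2, the small subunit made in S phase, by 0.21 and 0.03 on its probes. The former Rrm2 probe read 10.41 and 10.24 in FLT3-ITD, against 10.06 and 10.17 in pMIG, with the groups apart. Tyms, thymidylate synthase, had 5 detected probes, of which 4 were negative and 3 were undetected on at least 1 array. Its brightest probe read 10.49 and 10.34 against 10.58 and 10.51, a difference of -0.13 (SE 0.12, adjusted p = 0.654). The next, ILMN_1247173, read 8.02 and 7.80 against 8.32 and 8.06, a difference of -0.28. Tk1, thymidine kinase, differed by -0.10 and -0.24, and Dut, which clears dUTP, by 0.01.

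Among the genes that rebuild chromatin behind the fork, the subunits of chromatin assembly factor 1 pointed in opposite directions. Chaf1b read 10.56 and 10.39 in FLT3-ITD, against 10.79 and 10.70 in pMIG, a difference of -0.27 (SE 0.13, adjusted p = 0.367). Chaf1a read 9.90 and 9.83 against 9.62 and 9.81, a difference of 0.15 (SE 0.13, adjusted p = 0.603). Neither passed, and the difference between them was not tested. Uhrf1, which brings the maintenance methyltransferase Dnmt1 to newly copied DNA, differed by -0.03 (interval -0.35 to 0.28).

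Ube2t stood furthest from 0 of all 54 probes. It encodes the ubiquitin-conjugating enzyme that, with the ligase Fancl, marks Fancd2 and Fanci during repair of DNA crosslinks. Its probe (ILMN_2704919) read 5.40 and 5.43 in FLT3-ITD, against 6.59 and 6.44 in pMIG and was detected on all 4 arrays. The gap between groups was larger than either gap between replicates. The difference was -1.10 (SE 0.12, interval -1.43 to -0.78), or 2.15-fold lower in FLT3-ITD. It did not pass over all detected probes (limma adjusted p = 0.0804). By p it ranked 75 of the 14178, and 18 probes had a more negative difference. Raw intensities were 119.3 and 124.5 in FLT3-ITD, against 189.9 and 160.1 in pMIG, and without background correction the difference was -0.48, so its size depends on that correction.

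The calls depended on the model of the spread. With a variance trend, which lets bright probes have a smaller spread than dim ones, 7.92% of all detected probes passed (4.1% with a positive and 3.82% with a negative difference), and 3 member probes (5.56%) did, all with a negative difference: Ube2t (adjusted p = 0.0049), Mcm6 probe ILMN_1217331 (0.0053) and Rfc5 (0.0313). No member probe passed with a positive difference. Adjusted p for Ube2t ranged from 0.00279 to 0.433 over all alternatives. With any 1 array left out, its difference stayed between -1.18 and -1.02.

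The rest of the pathway was read through 6 further lists of 106 genes, of which 83 had a detected probe. Of these 83, 0 passed in limma, where 0.106% of all probes did, and the median over their 124 probes was -0.03. At an unadjusted p under 0.05 there were 7 probes with a positive and 15 with a negative difference, 17.7% together, near the 16.7% of all detected probes (8.41% positive and 8.29% negative). With the variance trend E2f2 passed with a positive difference, and Rbbp7, Nasp, Dnmt1, Dhodh, Ppat and Rpa3 with a negative one. Rpa3 and that grouping were named after their values were seen.

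Chromatin assembly and maintenance genes had the most negative median of the 6 lists, -0.21 over 13 probes, 4 of which belong to Rbbp7. Rbbp7, a histone-binding partner of several chromatin complexes, differed by -0.43 to -0.78 over its 4 probes, with the groups apart on each. On probe ILMN_1219275 it read 8.52 and 8.13 in FLT3-ITD, against 9.25 and 8.96 in pMIG (SE 0.19, adjusted p = 0.203). Dnmt1, the maintenance DNA methyltransferase, read 10.71 and 10.79 against 11.14 and 11.07, a difference of -0.35 (adjusted p = 0.256). Nasp, a histone chaperone, differed by -0.42 on one probe and by -0.01 and 0.17 on others detected on all arrays, so its direction depends on the probe.

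The E2F and RB genes had a median of -0.02 over 17 probes. E2f2, an activating E2F factor, read 9.49 and 9.45 in FLT3-ITD, against 8.83 and 8.62 in pMIG on probe ILMN_2673776, a difference of 0.75 (SE 0.13, adjusted p = 0.154). A second bright probe differed by 0.53, with the groups apart on both, and a dim probe, detected on 2 of the 4 arrays, by 0.17 with the groups overlapping. E2f3, also an activating factor, differed by 0.35 with the groups apart (adjusted p = 0.251). Tfdp2, a dimerization partner of E2F factors, differed by -0.49 with the groups apart on one dim probe and by -0.05 with the groups overlapping on the other. E2f1 differed by -0.15 and E2f4 by -0.02. Member probes of genes with an E2F-type word had a median difference of -0.07 over 17 probes, and those of genes with a window but no such word -0.06 over 30.

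Partners of Ube2t differed in both directions, without passing. Fancl differed by -0.60 (5.84 and 5.40 against 6.14 and 6.31, adjusted p = 0.245) on one probe and by 0.09 on the other. Fancd2 differed by 0.00 (SE 0.13) and Fanci by 0.29. Usp1, which removes the mark, differed by -0.21 to 0.23 over 3 probes. The 14 probes of this list had a median of 0.00.

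Other licensing and fork genes had a median of -0.05 over 31 probes. Dtl, which targets Cdt1 for destruction in S phase, was undetected in FLT3-ITD. On the background-corrected scale it was at least 1.74-fold lower there (limma adjusted p = 0.18). Without background correction Dtl differed by -0.30, less than that bound. Recql4, a helicase that aids origin firing, differed by 0.56, and Pole4, a small subunit of polymerase epsilon, by -0.41. Cdc7, the kinase that fires origins, and its activator Dbf4 differed by 0.06 and -0.09. In the checkpoint list Wee1, a kinase that holds back CDK activity, was below detection in FLT3-ITD and differed by -0.71 (limma adjusted p = 0.18). Clspn, the mediator of Chk1 activation, differed by 0.09 and 0.12 on its brighter probes and by 0.38 on its dimmest. In nucleotide synthesis the pyrimidine enzyme Dhodh differed by -0.49 and Cad by 0.34, while Umps differed by -0.47, -0.30 and 0.06 over its 3 probes. Paics and Ppat, both of purine synthesis, differed by -0.47 and -0.37. None of these passed in limma without the variance trend.

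**Figure D4:**
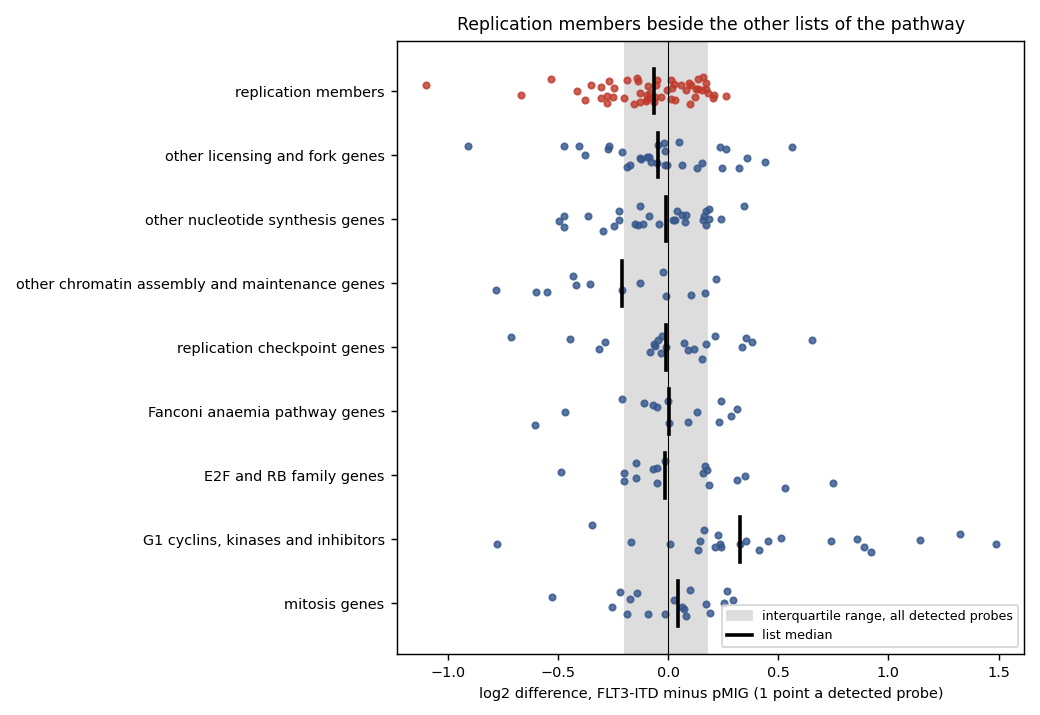
Log2 difference, FLT3-ITD minus pMIG (horizontal axis), of each detected probe of the replication genes (red) and of the lists read beside them (blue), with black bars for list medians and a grey band for the interquartile range of all detected probes. The replication median of -0.06 lies within the band and that of the G1 list, 0.33, lies outside it.

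Genes acting before and after S phase were read beside the replication genes. The G1 list of cyclins, kinases and inhibitors had a median of 0.33 over 23 probes. At an unadjusted p under 0.05, 11 had a positive and 2 a negative difference, where 8.41% and 8.29% of all detected probes did. Ccnd1 differed by 0.86 to 1.14 over 3 probes and the E-type cyclin Ccne1 by 0.92. For the inhibitor Cdkn2a, the probe detected on all 4 arrays differed by 1.49. The other Cdkn2a probe was undetected in pMIG, so only a lower bound of its log2 difference, 1.27, is given. Without background correction these Cdkn2a probes differed by 0.54 and 0.43. The inhibitor Cdkn1a differed by 0.33 to 0.74 over its probes, with the groups apart on each. The other E-type cyclin, Ccne2, differed by -0.35 and the G1 kinase Cdk6 by -0.78, with the groups apart on both. The Cdk6 probe was dim and differed by -0.25 without background correction. Mitosis genes had a median of 0.04 over 18 probes, with Top2a at 0.03 and Cdk1 at -0.01. No gene of either list passed in limma without the variance trend. With it, 9 G1 probes passed with a positive and 0 with a negative difference, against 4.1% and 3.82% of all detected probes. No mitosis probe passed with the trend. The difference of either list from the replication genes was not tested.

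Markers of cell types differed beside these values. Each bulk signal mixes cells, and fewer cells of a type cannot be told apart from less RNA per cell. The summed signal of markers of dendritic cells and MHC class II (8 of 9 genes detected) was 21104 to 21158 in FLT3-ITD and 8669 to 8681 in pMIG. In that list the MHC class II genes and Cd74 differed by 0.98 to 1.45. The dendritic cell genes Batf3 and Siglech differed by 0.22 and 0.17, and Itgax and Ccr7 by -0.08 and -0.27. The B lymphoid list (5 of 9) summed to 1589 to 1659 against 906 to 907. The sums of primary granule genes of neutrophil precursors (7 of 7) were 53526 to 53849 against 66873 to 72166, of mast cell and basophil markers (8 of 8) 15392 to 16319 against 19154 to 19664, and of megakaryocyte markers (7 of 9) 2354 to 2531 against 3095 to 3234. Of the 9 megakaryocyte probes, 6 had the groups apart with a negative difference, where 25.6% of all detected probes did. Another 2, both of Itga2b (0.47 and 0.34), were apart with a positive one, where 23.8% of all detected probes were. Erythroid markers (7 of 10) summed to 6982 to 7277 against 6760 to 7068, a sum that the bright transferrin receptor probes of Tfrc (-0.04 and -0.03) dominate. Within that list the globin genes Hba-a1 and Hbb-b1 differed by 1.29 and 0.37, and Epor and Klf1 by -0.64 and -0.36.

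Stem and progenitor markers (6 of 10) summed to 3066 to 3076 against 3162 to 3252, with a median difference of -0.23. Among them Cd34 and Myb differed by -0.62 and -0.56, Meis1 by 0.03 and Gata2 by 0.00, and Flt3 itself was undetected throughout. T and NK cell markers (3 of 10) summed to 3114 to 3186 against 3841 to 4480, a sum that the bright Nkg7 probe dominates. The NK receptor gene Klrd1 differed by 1.89 (adjusted p = 0.0555, and 3.9e-06 with the trend), Nkg7 by -0.47 and Cd3d by -0.38, while Cd4, Cd8a and Ncr1 were not detected on any array. Monocyte and macrophage markers (6 of 8) summed to 2266 to 2323 against 1810 to 1931. Mature neutrophil markers (8 of 9), S100a8 and Camp among them, were detected despite the depletion and summed to 109160 to 109432 against 98556 to 103043. S100a8 differed by 0.28 and Camp by -0.28, with the groups apart on both. Ltf, whose brighter probe weighs heavily in that sum, differed by 0.07 and 0.11 on its probes. The part of these shifts in the values of Ube2t, Mcm6 and Rfc5 was not tested.

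Between 51.5% and 53.5% of probes were detected on each, and r across detected probes was 0.991 and 0.990 between replicates and 0.983 to 0.985 between groups, with probes not independent. The median gap between replicates of a member probe was 0.15 in both groups, against 0.16 and 0.17 over all detected probes. Immediate early and heat shock genes, which can respond to cell handling, had a median difference of 0.42 over 9 probes, and their summed signal was 12715 to 13524 in FLT3-ITD against 10788 to 11789 in pMIG. Junb differed by 0.79, Jun by 0.64, Egr1 by 0.50 and Fos by 0.42, and the heat shock gene Hspa8 by -0.56. With the variance trend 4 probes of this list passed with a positive and 1 with a negative difference. Of all detected probes, 4.1% and 3.82% did. Without the trend none of the list passed. Reference genes had a median of 0.04 over 17 probes, from -0.87 to 1.13. The Actb probes differed by 0.29 to 1.13, with the groups apart on each. Hprt differed by -0.87 on a dim probe and by -0.02 and 0.10 on brighter ones. With the trend 5 reference probes passed with a positive and 1 with a negative difference, beside the same 4.1% and 3.82%. The part of the handling genes' shift in the members' values was not tested.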

How the data were processed

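The authors deposited a non-normalized bead intensity and a detection p-value for each probe and array, per the file headers. RNA was amplified to biotinylated cRNA for Illumina arrays, per the labels' protocols. Background handling and the making of the detection p-value are not stated. A second deposited table holds log2 values whose making is not stated, with array medians within 0.00371 of each other, and was used only as an alternative.

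Intensities were corrected with the normexp model of limma 3.58.1 (R 4.3.3) from the detection p-values, with an offset of 16, then log2-transformed and quantile-normalized. Probes with a detection p under 0.05 on at least 2 of 4 arrays were kept. Each probe was fitted on its own with lmFit and eBayes, as a two-sided test, and Benjamini-Hochberg adjusted over the 14178 kept probes, with a threshold of 0.05. All adjusted p-values are from limma, and the number of arrays limits their precision. Where every array of a group was undetected, a lower bound of the difference was computed. In it each undetected array takes its dimmest detected signal, or the probe's own signal where that is brighter. For Wee1 this equalled the plain difference, which is given instead. Such a bound holds only on the background-corrected scale and takes no account of the spread between replicates. Gene symbols came from the platform annotation (24279 probes with 1 symbol, 2233 with none listed). Summed signals are sums of normalized linear signals over a list's kept probes. Promoter sequences are RefSeq's (GRCm38.p6), and 6 members had no window in the table.

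Members, lists and tests were chosen with earlier results of these data known. All members were accounted for. Values on each array are given for the member with the smallest p in each role and for some other members. For some probes of members with several probes, only the difference is given. Up to 4 genes of each further list were named by smallest p, and others for their role or after their values were seen, to show members that moved apart from their list. Lists are described by counts and medians with no test. The fit was tested on simulated data with known changes.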

Additional observations from a re-analysis of the deposited data

How the results depend on the processing

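The count of detected probes past an adjusted p of 0.05, 15 as reported, was 963 without background correction, 408 with a normexp offset of 50, 97 with median centring, 85 for probes detected on all 4 arrays, 1183 with a variance trend and robust fit, 1123 with the trend alone, 45 on the authors' processed values and 7 in a replicate block fit. With 1 array left out it was 0 in limma each time, with 1565 to 1813 probes at an unadjusted p under 0.05. The count of replication member probes, 0 as reported, was 2 without background correction (Ube2t and Mcm6), 1 with an offset of 50 and 1 for probes detected on all 4 arrays (Ube2t in both), and 3 with the variance trend, with or without the robust fit (Ube2t, Mcm6 and Rfc5). It was 0 under the other alternatives run, the replicate block among them, with 2 to 4 member probes at an unadjusted p under 0.05. Genes of the further pathway lists that passed, 0 as reported, numbered 5 without background correction, 2 with an offset of 50 and 7 with the trend, with or without the robust fit, and 0 otherwise. The causes were not tested. The median difference of member probes stayed between -0.10 and -0.01, and no member probe that passed under an alternative changed direction. Ube2t had the most negative difference of the member probes under every alternative, from -0.48 without background correction to -1.18 without pMIG replicate 2. Same-numbered arrays of the groups did not deviate together (correlation -0.01), so the replicate numbers were not taken as pairs. With 1 array left out, 5 to 11 of the 54 differences changed sign, none of them passing, the largest being Orc1 at -0.53. Signal near background limits the dim probes of Orc1, Prim1, Cdc45, Lig1 and Tyms.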
